A study of Homo sapiens with 2 samples.

Results

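The telomerase and shelterin genes comprised 10 genes, chosen by name for their place in the 2 complexes and found by Ensembl identifier among the 57736 genes of an RNA-Seq count table. TERT, DKC1, NOP10 and NHP2 encode proteins of telomerase, and TERF1, TERF2, TERF2IP, POT1, TINF2 and ACD encode the proteins of shelterin. In the table they are TERT (ENSG00000164362), DKC1 (ENSG00000130826), NOP10 (ENSG00000182117), NHP2 (ENSG00000145912), TERF1 (ENSG00000147601), TERF2 (ENSG00000132604), TERF2IP (ENSG00000166848), POT1 (ENSG00000128513), TINF2 (ENSG00000092330) and ACD (ENSG00000102977). All 10 members were found and all 10 had at least 10 reads in both libraries together. The table held 1 library of parental A1847 cells, a human epithelial ovarian cancer cell line with wild type CARM1, and 1 library of A1847 CARM1 KO cells. CARM1 is an arginine methyltransferase, and the knockout was made with a lentiviral CRISPR vector carrying a CARM1 guide RNA. Both were grown in RPMI medium with fetal bovine serum and carried no drug treatment in the labels. The CARM1 KO library came from 1 clone, so what CARM1 loss did and what else sets that clone apart from the cells it was made from cannot be told apart. With 1 library per group no difference has a replicate check, no test between the conditions was possible and no p-value is given. The intervals that follow are exact 95% binomial intervals and cover counting error only.

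Telomerase is a reverse transcriptase that adds telomere repeats to chromosome ends. TERT is its catalytic protein, and TERC is the RNA that carries the template. Dyskerin, the product of DKC1, binds TERC together with NOP10, NHP2 and GAR1, as it binds other H/ACA RNAs, and this core keeps the RNA stable. Shelterin covers the finished repeats and hides the ends from DNA repair. TRF1 (TERF1) and TRF2 (TERF2) bind the double-stranded repeat, POT1 binds the single-stranded overhang, and TIN2 (TINF2) and TPP1 (ACD) join them, while RAP1 (TERF2IP) is held by TRF2. In most cancer cells telomerase is reactivated, with TERT as the component that is usually limiting.

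To show what the particle reads, the template of TERC is given first, because TERC is its RNA part and is described beside the members. It lies within chr3:169482773-169482823 of GRCh37 on the minus strand, and is printed 5′ to 3′ in the letters of the reference transcript, with the template in capitals at positions 46 to 56 of the transcript.
TERC: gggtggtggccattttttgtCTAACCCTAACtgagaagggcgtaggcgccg
The promoter windows that follow belong to TERT, the member with the largest difference between the libraries, and to NOP10, a member with little difference. Both were taken from RefSeq (GRCh38.p14), cover 250 bases before to 50 bases after the start of the gene, and matched GRCh37 exactly at chr5:1295134-1295433 and chr15:34635288-34635587, each on the minus strand. Capitals mark the E-box CACGTG that MYC and MAX can bind, the GC box GGGCGG that SP1 can bind and the ETS motif CCGGAA, on either strand.
TERT: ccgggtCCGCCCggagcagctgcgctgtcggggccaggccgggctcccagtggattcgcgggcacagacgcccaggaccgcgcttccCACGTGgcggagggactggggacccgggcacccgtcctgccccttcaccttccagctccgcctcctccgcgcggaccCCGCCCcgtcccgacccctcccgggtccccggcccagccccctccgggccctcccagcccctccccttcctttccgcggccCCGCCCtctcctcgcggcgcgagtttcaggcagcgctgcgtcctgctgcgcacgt
NOP10: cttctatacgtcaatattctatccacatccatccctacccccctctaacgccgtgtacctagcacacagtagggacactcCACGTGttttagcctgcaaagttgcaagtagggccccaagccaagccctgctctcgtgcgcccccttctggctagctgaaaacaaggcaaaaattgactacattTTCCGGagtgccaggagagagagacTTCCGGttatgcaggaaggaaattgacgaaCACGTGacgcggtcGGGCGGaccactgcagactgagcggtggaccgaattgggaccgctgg
The TERT window held 1 E-box, 3 GC boxes and 0 ETS motifs, with the E-box from base -163 to -158 before the start. It ends in the letters cacgt, and a motif that runs past the last base of a window was not counted. The NOP10 window held 2 E-boxes, 1 GC box and 2 ETS motifs. TERF1 was left out of the search and no window was found for TERF2. A window was thus used for 8 of the 10 members. Of these 8 members 2 held an E-box, 8 held a GC box and 4 held an ETS motif, while over 35116 promoters of the same length 7.26% held an E-box, 45.0% a GC box and 17.2% an ETS motif. The GC content was 77.3% for TERT and 54.7% for NOP10, against a median of 58.7% over all promoters. The other members' windows lay between these, from 60.3% for POT1 to 72.3% for DKC1. The window of DKC1, which also differed little between the libraries, held 4 GC boxes and 0 ETS motifs. These matches describe letters in the reference and not occupied sites.

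The parental library held 30741953 reads and the CARM1 KO library 32300391 reads. CARM1, which the guide RNA targets, dropped from 975 to 380 reads, or 2.65-fold after scaling (interval 2.35 to 2.99). These reads count transcript and not protein, which the study examined by immunoblot in parental and CARM1 KO cells. Of 10 markers of ovarian epithelial cancer, 8 had at least 10 reads, and those below were MUC16, with 0 and 1 reads, and WT1, with 8 and 1 reads. The summed level of all 10 was 1419 scaled reads per 1000000 in parental and 4732 in CARM1 KO cells. Most of both sums came from the keratins KRT8 (567.6 and 2198), KRT18 (682.2 and 1600) and KRT7 (142.4 and 832.3). Of the 8 markers 7 were more than 1.5-fold higher, with CDH6, at 46 and 1 reads, lower. Over all 18563 genes with at least 10 reads, 27.7% were higher and 28.5% lower past that fold. The sum of 5 fibroblast markers was 491 in parental and 17.0 in CARM1 KO cells, and PDGFRA, with 14326 and 2 reads, made up 462.0 of the parental sum. LUM, THY1 and DCN were lower too, with DCN at 24 and 0 reads, while COL1A1 was higher, with 131 and 537 reads. Among 4 leukocyte markers CD3E had 0 reads in both libraries, and the sums were 0.290 and 0.687. Of the endothelial markers 2 of 3 were matched, CDH5 had 0 reads in both libraries and the sums were 0.0323 and 0.0625. None of 5 proliferation genes passed a fold of 1.5, and their sums were 2242 and 2330. The part of these marker differences in the results that follow was not tested. In such bulk RNA, fewer cells that make a transcript and less transcript per cell cannot be told apart.

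TERT was the member that differed most. The gene occupies bases 1253262 to 1295183 of chromosome 5 (GRCh37, minus strand), 1.25 Mb from the end of the short arm. The parental library held 128 TERT reads and the CARM1 KO library 7, which is 4.13 and 0.219 reads per 1000000 after scaling by the TMM method of edgeR. The CARM1 KO level was thus lower by 18.9-fold (95% interval 8.90 to 47.9). It was the only member past a fold of 3, a threshold that 10.5% of all 18563 tested genes passed downwards and 11.5% upwards, 22.0% in all. The difference of TERT, on the log2 scale with a prior count of 2, was larger in size than that of 97.0% of the tested genes. Even in parental cells TERT was the lowest member per length, at 1.23 TPM (reads per length of all annotated exons, scaled to the same total in every library), above 26.8% of the tested protein-coding genes. In CARM1 KO cells it stood at 0.0776 TPM, above 4.70% of them, and only 7 reads set its value there.

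The RNA partner of TERT was also lower, and the dyskerin core was not. TERC, which is no member but was listed with the particle, went from 1029 parental reads to 643, and was 1.65-fold lower (95% interval 1.496 to 1.83). DKC1, the pseudouridine synthase of H/ACA particles, had 7442 and 8136 reads, a ratio of 1.06 (95% interval 1.03 to 1.09). NOP10, the smallest core protein, had 2669 and 2697 reads, a ratio of 0.979 (95% interval 0.927 to 1.03). NHP2, which completes the core, had 1684 and 2038 reads, a ratio of 1.17 (95% interval 1.10 to 1.25). GAR1, which joins the mature particle in place of NAF1, had 239 and 232 reads, a ratio of 0.940 (95% interval 0.781 to 1.13). The intervals of NOP10 and GAR1 included 1, and none of the 4 core genes passed a fold of 1.5.

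**Figure D1:**
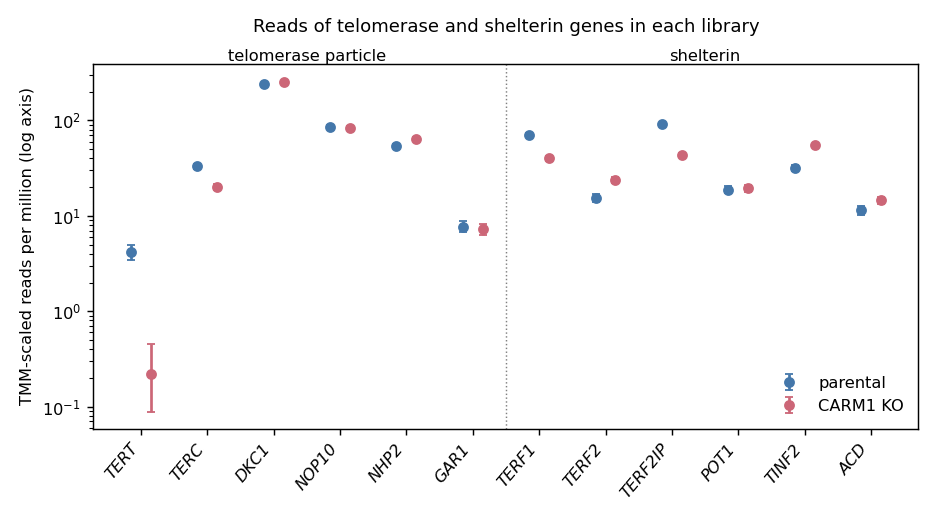
Reads per 1000000 after TMM scaling (log axis) of the telomerase particle genes and the shelterin genes in the parental and the CARM1 KO library, with bars for 95% Poisson intervals of the counts. TERT stands at 4.13 and 0.219, while DKC1, NOP10, NHP2 and GAR1 nearly overlap between the libraries.

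Ratios between genes of the same library do not depend on the scaling, and were chosen for TERT and its partners after the values were seen. TERT had 0.0172 reads for each DKC1 read in parental and 0.000860 in CARM1 KO cells, 19.99-fold lower (95% interval 9.42 to 50.7). TERC had 0.138 and 0.0790 reads for each DKC1 read, 1.75-fold lower (95% interval 1.58 to 1.94). TERT was 11.4-fold lower relative to TERC (95% interval 5.34 to 29.2). The catalytic subunit was therefore lower relative to both of its partners, and TERC was lower relative to dyskerin by a smaller amount.

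In GRCh37 DKC1 spans bases 153991017 to 154005964 of chromosome X (plus strand), NOP10 34631360 to 34635381 of chromosome 15 and NHP2 177576464 to 177580895 of chromosome 5, both minus. The small RNA genes SNORA36A, with 3 and 0 reads, and SNORA56, with 0 reads in both libraries, lie within DKC1 on the same strand. RMND5B overlaps NHP2 by 1106 bases on the opposite strand and had 651 and 528 reads. Whether the counting used strand is not given in the sources used here, so reads in such overlaps could have gone to either gene.

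The shelterin genes went both ways. TERF1 and TERF2IP were lower in CARM1 KO cells, TERF2 and TINF2 were higher, and POT1 and ACD stayed within a fold of 1.5. Together with TERT, 3 of the 10 members were lower past a fold of 1.5 and 2 were higher. Over all tested genes 28.5% were lower and 27.7% higher past that fold, and over the 14527 genes with at least 50 reads these shares were 25.2% and 27.2%, so the members' counts were near the background. The median log2 ratio was 0.07 over the members and -0.03 over all tested genes, and the median size of the difference was 0.49 over the members and 0.69 over all tested genes.

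TERF1, whose protein TRF1 binds the repeats and helps their replication, had 2184 parental and 1281 CARM1 KO reads. After scaling it was 1.76-fold lower (95% interval 1.64 to 1.89). TERF2IP, the gene of RAP1, had 2830 and 1385 reads and was 2.11-fold lower (95% interval 1.98 to 2.25), the largest difference among the shelterin genes. TERF2, whose protein TRF2 guards ends against fusion, had 477 and 767 reads and was 1.56-fold higher (95% interval 1.39 to 1.75). The interval of TERF2 crossed the fold of 1.5. TINF2, the gene of the central linker TIN2, had 986 and 1749 reads and was 1.72-fold higher (95% interval 1.59 to 1.86).

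POT1, the gene of the overhang binding protein, had 582 parental and 623 CARM1 KO reads, a ratio of 1.04 (95% interval 0.924 to 1.16). ACD, the gene of TPP1, which brings telomerase to the end, had 354 and 464 reads, a ratio of 1.27 (95% interval 1.10 to 1.46). Of the 6 shelterin genes POT1 was the only one whose interval included 1.

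**Figure D2:**
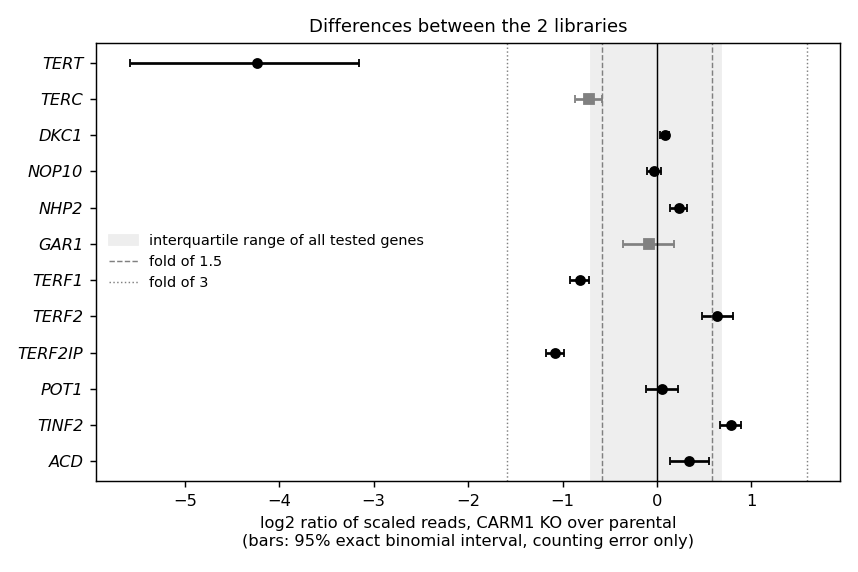
Log2 ratio of scaled reads, CARM1 KO over parental, for the 10 members (circles) and for TERC and GAR1 (squares), with 95% exact binomial intervals, lines at folds of 1.5 and 3 and the interquartile range of all tested genes in grey. TERT lies far below the fold of 3, TERF1 and TERF2IP lie below the grey range, and TINF2 lies just above it.

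The make-up of the shelterin transcripts shifted with these differences. Per length, TERF2IP held 50.6% of the summed shelterin level in parental cells and 27.3% in CARM1 KO cells. TINF2 went from 17.8% to 34.9%, TERF2 from 6.69% to 11.9% and ACD from 8.69% to 12.6%. TERF1 went from 10.99% to 7.12%, and POT1 held 5.28% and 6.24%. The shares depend on the lengths taken for each gene. With the longest transcript as the length, an alternative chosen after the values were seen, TERF2IP held 51.8% and 31.9%, TINF2 10.7% and 24.0%, and TERF1 20.1% and 14.8%.

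Between the libraries the order of the shelterin genes changed. In parental cells the levels per length ran from TERF2IP at 36.4 TPM through TINF2 at 12.8, TERF1 at 7.91, ACD at 6.26 and TERF2 at 4.82 to POT1 at 3.80, and no neighbours in this order had overlapping counting intervals with these lengths. In CARM1 KO cells TINF2 came first at 26.2 TPM, followed by TERF2IP at 20.6, ACD at 9.47, TERF2 at 8.94, TERF1 at 5.36 and POT1 at 4.69. The intervals of ACD and TERF2 overlapped there, as did those of TERF1 and POT1, from 5.07 to 5.66 and from 4.33 to 5.08. Both orders depended on the length. With the longest transcript as the length, the parental order was TERF2IP, TERF1, TINF2, TERF2, POT1 and ACD, and the CARM1 KO order was TERF2IP, TINF2, TERF1, TERF2, ACD and POT1. Of the core, NOP10, NHP2 and DKC1 stood above all of shelterin in both libraries, with NOP10 at 96.3 and 112 TPM, NHP2 at 64.9 and 90.7 TPM and DKC1 at 46.0 and 58.1 TPM, whereas GAR1, at 6.92 and 7.76 TPM, stood below TERF2IP and TINF2. TPM is a share of each library that short RNAs also enter, so these levels rank genes within a library and the ratios of scaled reads given above compare the libraries.

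**Figure D3:**
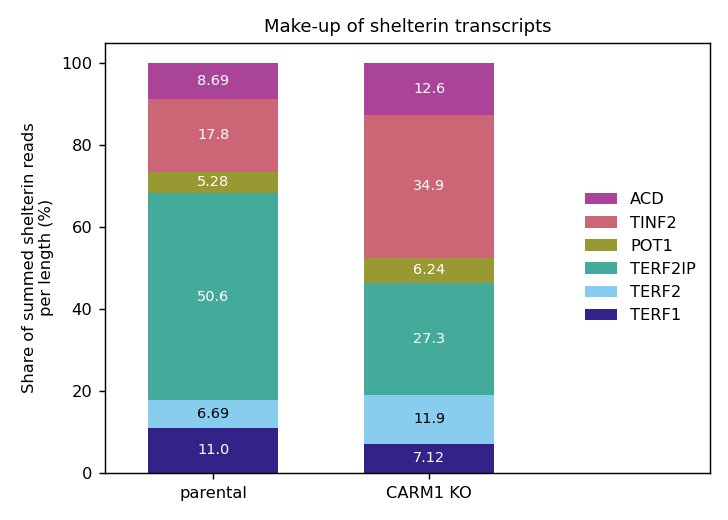
Share of each gene in the summed shelterin reads per length (%), with a bar for each library and lengths taken as the union of annotated exons. TERF2IP shrinks from 50.6% to 27.3% and TINF2 grows from 17.8% to 34.9%.

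Transcript ratios within shelterin, which are free of the scaling, differed between the libraries. These pairs were also chosen after the values were seen. TERF2IP had 5.93 reads for each TERF2 read in parental and 1.81 in CARM1 KO cells, a 3.29-fold lower ratio (95% interval 2.88 to 3.76). TERF1 had 4.58 and 1.67 reads for each TERF2 read, 2.74-fold lower (95% interval 2.39 to 3.14). Relative to TINF2, TERF1 was 3.02-fold lower (95% interval 2.72 to 3.36) and ACD was 1.35-fold lower (95% interval 1.15 to 1.59). POT1 and ACD, whose proteins form a pair at the overhang, changed by 1.22-fold (95% interval 1.02 to 1.47), the least of the shelterin pairs computed.

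In GRCh37 TERF1 spans bases 73921091 to 73960358 of chromosome 8 (plus strand). Chromosome 16 carries ACD at 67691415 to 67694713 and TERF2 at 69389470 to 69442474, both on the minus strand, and TERF2IP at 75681671 to 75795770 on the plus strand. POT1 spans chromosome 7 from 124462440 to 124570037 and TINF2 on chromosome 14 from 24707492 to 24711869, both on the minus strand. TERF1 has 7 and NHP2 has 2 processed pseudogenes in the annotation, with which RSEM could divide reads, and they held at most 12 reads in any library. Protein-coding genes on the opposite strand overlap TERF2IP (KARS1, 871 bases), TERF2 (CYB5B, 10170 bases), TINF2 (GMPR2, 957 bases) and ACD (CARMIL2, 58 bases). KARS1 had 7704 and 4338 reads, CYB5B 5653 and 6224, GMPR2 2361 and 3289 and CARMIL2 77 and 31. The antisense RNA POT1-AS1 had 17 and 11 reads.

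To see whether the members differed along with the genes around them, each member was set beside the 10 nearest expressed protein-coding genes on either side. TERF2IP had a log2 ratio of -1.08, and the median of its neighbours was -1.06. Of these 20 neighbours 19 were lower in CARM1 KO cells and 16 were lower past a fold of 1.5, so TERF2IP differed no more than most of them. POT1 differed from most of its neighbours. Its log2 ratio was 0.05 while its neighbours had a median of -1.11. Of these, 15 of 20 were lower and 4 higher past a fold of 1.5, and 16 of 20 were below POT1. The stretch that 20 neighbours covered varied. It ran from base 75032922 to 81996290 for TERF2IP, 120427374 to 128462186 for POT1 and 67271586 to 67963579 for ACD.

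TERT was lower than 19 of its 20 neighbours, whose median log2 ratio was -0.38. The exception was LPCAT1, an acyltransferase of phospholipid remodelling, with 1452 parental and 9 CARM1 KO reads. CLPTM1L, between TERT and LPCAT1, had 7319 and 3767 reads and was 2.01-fold lower (95% interval 1.93 to 2.09). SLC12A7, the nearest expressed gene on the other side, had 83 and 122 reads, a ratio of 1.42 (95% interval 1.07 to 1.90). TERT and LPCAT1 were thus both lower by more than CLPTM1L, which lies between them. LPCAT1, CLPTM1L and SLC12A7 were named after their values were seen.

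TERF2 was higher than 19 of its 20 neighbours, at a log2 ratio of 0.64 against a median of 0.13. TERF1 was lower than 16 of 20, at -0.82 against 0.37. TINF2 was higher than 13 of 20, at 0.78 against 0.28. DKC1 was lower than 17 of 20, at 0.08 against 0.55, and 10 of its neighbours were higher past a fold of 1.5. NOP10, NHP2 and ACD were higher than 12, 13 and 12 of 20. DNA copy number was not measured in these files.

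**Figure D4:**
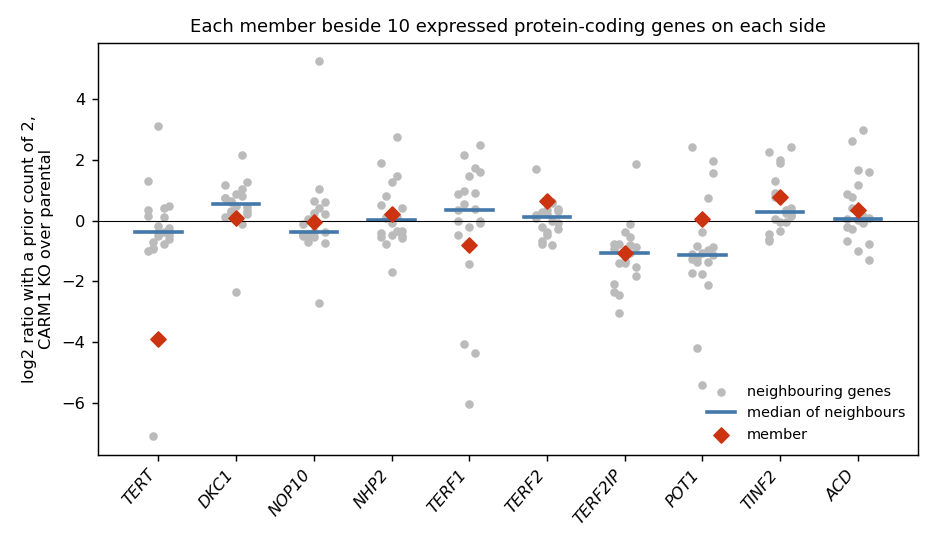
Log2 ratio with a prior count of 2, CARM1 KO over parental, of each member (diamond), of the 10 expressed protein-coding genes on either side of it (grey points) and the median of those neighbours (line). TERF2IP lies on the median of its neighbours at -1.06, POT1 lies above a median of -1.11, and TERT lies below all but 1 neighbour.

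The wider telomere pathway was read from lists of genes by role. Of 60 tested genes that are no members, 13 were higher and 8 were lower past a fold of 1.5, 1 was higher and 0 were lower past a fold of 3, and the median log2 ratio was 0.08. Over all tested genes the shares past a fold of 1.5 were 27.7% and 28.5%, as above, and past a fold of 3 they were 11.5% and 10.5%.

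Of the genes that assemble and move telomerase, 1 of 9 was higher and 1 was lower, with a median log2 ratio of -0.37. HSP90AA1, a chaperone of TERT, had 55714 and 102938 reads and was 1.79-fold higher (95% interval 1.77 to 1.81). COIL, the scaffold of the Cajal bodies in which TERC resides, had 3205 and 1990 reads and was 1.66-fold lower (95% interval 1.57 to 1.76). NOLC1, a chaperone of H/ACA particles, had 16623 and 12556 reads, a ratio of 0.731 (95% interval 0.715 to 0.749). For TERC maturation and decay 1 of 6 genes was higher and 0 were lower. TENT4B, which adds tails that mark TERC for decay, had 1687 and 2720 reads and was 1.56-fold higher (95% interval 1.47 to 1.66). PARN, the nuclease that removes such tails, had 2748 and 3122 reads, a ratio of 1.10 (95% interval 1.04 to 1.16), and EXOSC10, of the nuclear exosome, had 5059 and 5489 reads, a ratio of 1.05 (95% interval 1.01 to 1.09).

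Of the genes of CST and polymerase alpha-primase, which fill in the strand opposite the overhang, 1 of 7 was higher and 2 were lower. CTC1, the large subunit of CST, had 273 and 128 reads and was 2.203-fold lower (95% interval 1.78 to 2.74). POLA2, the B subunit of the polymerase, had 1449 and 919 reads and was 1.63-fold lower (95% interval 1.498 to 1.77). PRIM2, the large primase subunit, had 1562 and 2424 reads and lay at the threshold, with a ratio of 1.503 (95% interval 1.41 to 1.60). The other CST subunits STN1 and TEN1 had ratios of 1.49 and 1.38, so CST subunits lay on both sides of 1.

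Of the genes of telomere replication, end processing and length control, 4 of 16 were higher and 2 were lower. DCLRE1B, the nuclease Apollo that TRF2 brings to telomeres, had 920 and 2062 reads and was 2.17-fold higher (95% interval 2.01 to 2.35). MRE11 was 1.85-fold higher (95% interval 1.76 to 1.94) and RAD50, its partner in the break repair complex, was 1.57-fold lower (95% interval 1.49 to 1.65). TELO2, which helps PI3K-related kinases fold, was 1.68-fold higher (95% interval 1.42 to 1.998), and RTEL1, a helicase that unwinds telomere loops, was 1.63-fold higher (95% interval 1.45 to 1.85). PINX1, an inhibitor of telomerase, was 1.65-fold lower, with 1185 and 740 reads (95% interval 1.51 to 1.82).

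Of the genes of alternative lengthening, the recombination route to telomere upkeep, 2 of 8 were higher and 1 was lower. ATRX, the chromatin remodeller that restrains this route, had 5524 and 2710 reads and was 2.10-fold lower (95% interval 2.01 to 2.21). Its partner DAXX was within the fold, at a ratio of 1.30 (95% interval 1.22 to 1.38). SP100, a component of PML bodies, had 513 and 1318 reads and was 2.49-fold higher (95% interval 2.25 to 2.76), and RAD52, a recombination protein, had 261 and 419 reads and was 1.56-fold higher (95% interval 1.33 to 1.82).

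Of the regulators of TERT transcription, 4 of 12 tested genes were higher and 1 was lower. ETS1 had 1796 and 6333 reads and was 3.42-fold higher (95% interval 3.24 to 3.60), the only gene of the pathway lists higher past a fold of 3. ETS2 had 512 and 1536 reads and was 2.90-fold higher (95% interval 2.63 to 3.22). E2F1 and the tumour suppressor MEN1 were 1.66-fold (95% interval 1.45 to 1.91) and 1.72-fold higher (95% interval 1.54 to 1.91). MXD1, which competes with MYC for MAX at E-boxes and represses TERT, was 2.72-fold lower (95% interval 2.27 to 3.27). MYC had 2548 and 1839 reads, a ratio of 0.699 (95% interval 0.658 to 0.742), and MAX and SP1 had ratios of 0.966 and 0.864, all within the fold. WT1, with 8 and 1 reads, was not tested. The E-box of the TERT window shown above is a motif that MYC and MAX can bind, and its GC boxes are motifs that SP1 can bind. That window held 0 ETS motifs. Binding of the regulators was not measured in these files.

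**Figure D5:**
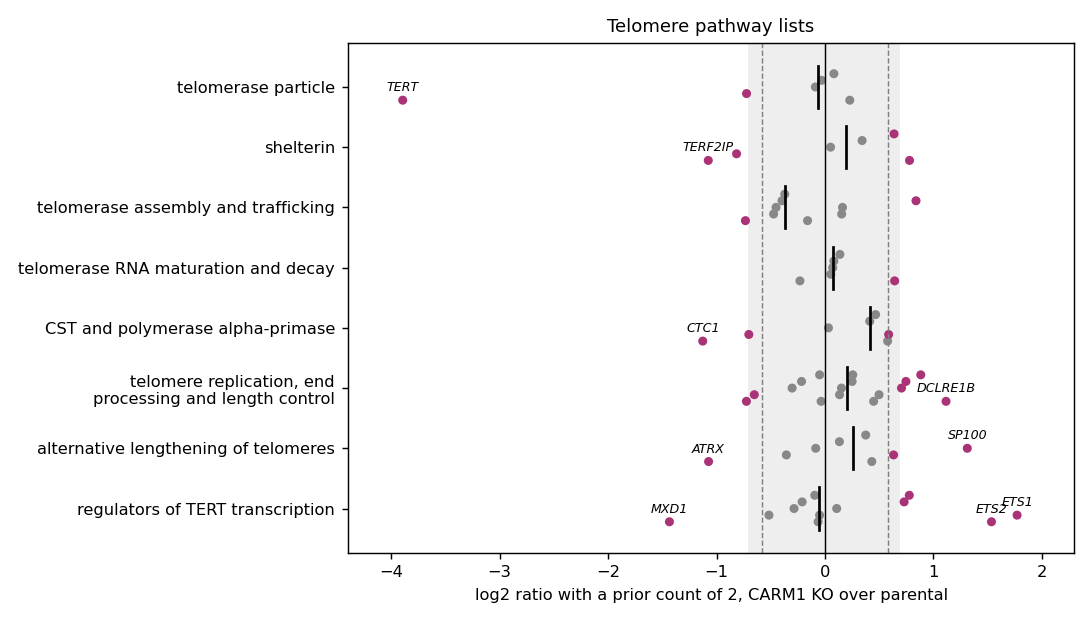
Log2 ratio with a prior count of 2, CARM1 KO over parental, of every tested gene in 8 lists, with a black bar at each list's median, dashed lines at a fold of 1.5 and the interquartile range of all tested genes in grey. TERT is the outermost gene, and the genes labelled differ by more than 1 on the log2 scale.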

How the data were processed

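Parental and CARM1 KO cells of the A1847 line were each measured by RNA-Seq in 1 library, from 75 bp paired-end reads of rRNA-depleted total RNA. The authors aligned reads to hg19 with bowtie2, estimated reads per Ensembl gene with RSEM (version 1.2.3 in the submitters' processing notes) and deposited these as raw, whole-number counts. The paper's methods name a different version of RSEM. The Ensembl release and the use of strand are not given in the sources used here. RSEM divides reads among genes that share sequence.

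Identifiers were matched to GENCODE v44 lifted to GRCh37, which held 55501 of the 57736 genes. Where a symbol had several identifiers, the one with the most reads was taken. PECAM1 was not matched. Counts were scaled by TMM in edgeR 4.0.16 (R 4.3.3) over the 18563 genes whose counts summed to 10 or more. The depth was 30741953 and 32300391 reads. Folds are ratios of scaled counts with exact 95% binomial intervals (scipy 1.17.1), which cover counting error only. Calls use a prior count of 2 and folds of 1.5 and 3. The latter is from the study's methods, which used it together with an FDR limit from edgeR. No test was made here, because 1 library per group leaves no spread for edgeR to estimate. The fold and interval steps were run on counts simulated with counting error only and with the library sizes known. The scaling, levels, lists, neighbours and motifs were not tested this way. TPM used exon-union lengths of GENCODE, which may differ from the authors' models.

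The members, lists and rule were chosen with earlier results of these data known. Named genes were the members, CARM1, every listed gene past a fold of 1.5, or the listed genes with most reads where fewer than 3 passed, annotated pseudogenes and overlapping genes. LPCAT1, CLPTM1L, SLC12A7 and further list genes were named after their values were seen. No gene was named for a similar pattern, since 2 libraries give 1 difference per gene. Alternatives were other scalings, DESeq2 1.42.0 size factors among them, other minimums of reads, a prior count of 0.125 and other lengths. An alignment of the TERF1 and TERF2 proteins was not run.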

Additional observations from a re-analysis of the deposited data

How the results depend on the processing

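No paired analysis was possible because each group has 1 library, and for the same reason no library could be left out. TERT, TERF1, TERF2, TERF2IP and TINF2 stayed past a fold of 1.5 in their direction under library size scaling, DESeq2 size factors, upper-quartile scaling, TMM over protein-coding genes and a smaller prior count. The log2 ratio of TERT ranged from -4.21 to -3.86 there, and that of NOP10 from -0.07 to 0.0046, the positive value under upper-quartile scaling. The count of CST and polymerase alpha-primase genes higher past a fold of 1.5, 1 in the report, was 0 with library size scaling, TMM over protein-coding genes or at least 50 reads, and 2 with DESeq2 size factors, upper-quartile scaling or at least 1 read. With at least 1 read, 2 regulators of TERT were lower past a fold of 1.5 in place of 1. Over all genes, 8922 of 26878 were lower past that fold in place of 5285 of 18563. With at least 50 reads 1211 of 14527 genes were lower past a fold of 3 in place of 1950 of 18563. The TMM scaling was computed anew for each minimum of reads. In the main setting PRIM2 and STN1 had ratios of 1.503 and 1.49, on either side of the fold of 1.5. WT1, with 8 and 1 reads, was the regulator of TERT admitted with at least 1 read. The cause was not tested further, beyond the number of genes that each minimum admits.

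Levels per length depend on the length and the total. With the longest transcript, the TPM in parental and CARM1 KO cells were 72.5 and 88.4 for DKC1, 134 and 151 for NOP10, 107 and 145 for NHP2, 25.6 and 16.8 for TERF1, 7.92 and 14.2 for TERF2, 66.0 and 36.0 for TERF2IP and 7.33 and 8.75 for POT1, and TINF2 had 13.7 in parental cells. With the total taken over protein-coding genes, they were 3.92 and 0.188 for TERT, 147 and 140 for DKC1, 307 and 272 for NOP10, 207 and 219 for NHP2, 25.2 and 12.9 for TERF1, 15.4 and 21.6 for TERF2, 116 and 49.7 for TERF2IP, 12.1 and 11.3 for POT1, 40.9 and 63.4 for TINF2 and 19.97 and 22.9 for ACD. With 5 neighbours on each side, the median changed sign for TERF2, from 0.13 to -0.04, and for NHP2, from 0.01 to -0.21. The other neighbour medians kept their sign, and that of TERF1 moved from 0.37 to 0.63. All 10 moved by less than the standard deviation of the single neighbours, which is a wide allowance. The 7 reads of TERT in CARM1 KO cells limit its fold to between 8.90 and 47.9. The alignment of the TERF1 and TERF2 proteins was not run.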

Other observations

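TERT and DKC1 lie 1.25 and 1.26 Mb from a chromosome end, and NHP2 3.33 Mb, while the other members lie 14.6 to 72.4 Mb away. A comparison by distance was chosen after the values were seen. Of 846 protein-coding genes with at least 50 reads within 2 Mb of an end, 24.3% were higher and 22.5% lower past a fold of 1.5 in CARM1 KO cells. Of 11676 such genes farther away, 27.3% were higher and 23.8% lower, and the median log2 ratio was 0.02 in both sets.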
